A study of Mus musculus with 18 samples.

Results

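Eomes-high and Eomes-negative cells were compared within the Pou5f1-positive cells of the mouse embryo at embryonic day (E) 6.75 that held no transcript of the streak and lineage genes T, Mesp1 and Foxa2. The cells came from wild-type C57BL/6 embryos with no treatment, so strain, genotype and age were the same in every group below. Per the labels' protocols, the extraembryonic part of each E6.75 embryo was cut away, the rest was dissociated embryo by embryo, and single cells were picked by hand and sequenced with CEL-Seq2, which marks transcripts by cell and with unique molecular identifiers (UMIs). The 6 E6.75 libraries, named 1_10, 1_11, 2_9, 2_12, 2_13 and 2_14 in the labels, held 576 cells of the 1728 in the series. The embryo behind each cell, and how many embryos a library drew on, were not known here. With the library as a block, the p-values below measure how far a difference between groups varied from library to library. This spread may be technical.

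A cell entered with at least 10000 transcripts of nuclear genes, at least 1 transcript of Pou5f1, and under 5 transcripts per 10000 of Ttr, Apoa1 and Spink1 together, which are genes of the visceral endoderm. These filters kept 404 cells, and 224 of them had no T, Mesp1 or Foxa2. Among the 224, the 83 cells with at least 1 Eomes transcript per 10000 formed the Eomes-high gate, the 38 cells with no Eomes transcript the Eomes-negative gate, and the 103 cells between them were kept only as a reference. The 2 gates compared thus held 121 cells. Their numbers by library, in the order 1_10, 1_11, 2_9, 2_12, 2_13 and 2_14, were 21, 19, 16, 14, 8 and 5 Eomes-high cells and 9, 13, 4, 10, 0 and 2 Eomes-negative cells. Libraries 2_13 and 2_14 had fewer than 3 Eomes-negative cells and were left out of the comparison between the gates, which rested on 70 Eomes-high and 36 Eomes-negative cells of 4 libraries. A further reference was the 139 cells that passed the same filters and held T, of which 46 and 44 came from 2_13 and 2_14. They were taken whatever their Eomes, Mesp1 and Foxa2.

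Eomes encodes a T-box transcription factor that the posterior epiblast switches on before gastrulation and that mesoderm and definitive endoderm both need. The epiblast is the epithelial layer that gives rise to the embryo proper, and its cells turn on T, also called Brachyury, as they form the primitive streak. NODAL, a ligand of the TGF-beta family, acts upstream of Eomes in the epiblast. It signals through activin receptors and the co-receptor encoded by Tdgf1 (Cripto) to SMAD2 and SMAD3, which bind DNA with partners such as FOXH1, and it also acts on its own gene. Eomes is expressed in the extraembryonic ectoderm as well, the trophoblast tissue next to the epiblast.

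The gates were set on Eomes itself, so its levels describe the choice of cells and were not tested. Eomes in the Eomes-high cells ran from 1.02 to 12.8 transcripts per 10000, with a median of 1.78. The 3 cells just inside the threshold had 1.02, 1.02 and 1.03, and the 3 just outside had 0.997, 0.992 and 0.972. These levels rest on few molecules, since the cells held 2 to 55 Eomes transcripts (median 8) and 8 of them held 2. A zero was weaker evidence still. With a floor of 3 counts, the Eomes-negative cells could have carried up to 0.233 to 2.93 Eomes transcripts per 10000 (median 0.873), and this floor was under the threshold of 1 in 21 of the 38. In the T-positive cells, Eomes had a median of 4.64 and reached 19.5 per 10000.

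**Figure D1:**
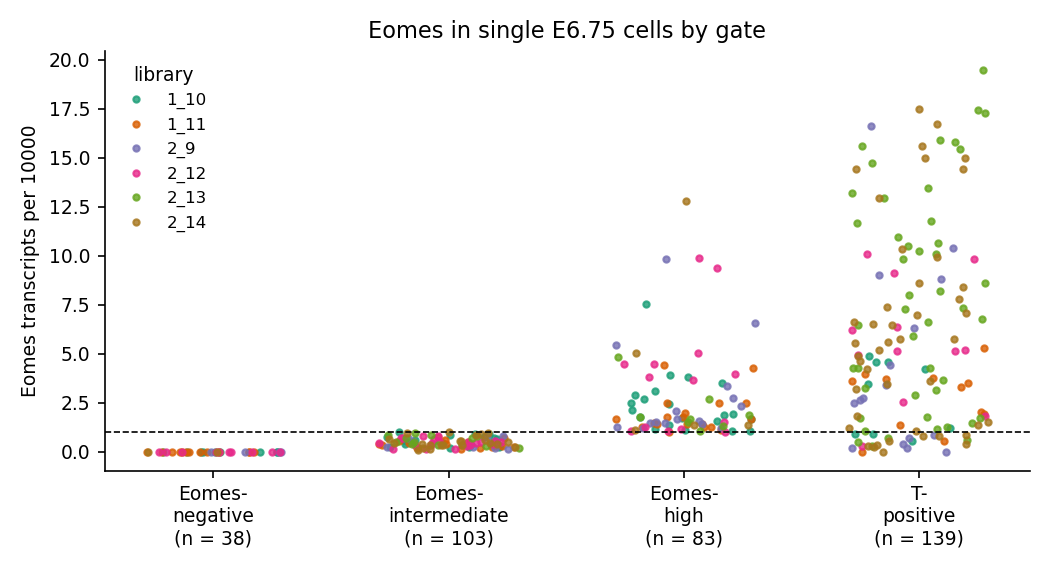
Eomes transcripts per 10000 nuclear transcripts (vertical axis) in single E6.75 cells, by gate (horizontal axis) and coloured by library, where each point is 1 cell and the dashed line is the threshold of 1 per 10000. Most Eomes-high cells lie close above the line (median 1.78), while T-positive cells reach 19.5.

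Pou5f1, which marks the epiblast and served as a filter, had a median of 4.04 transcripts per 10000 in the Eomes-negative cells and 3.90 in the Eomes-high cells. The name epiblast did not hold for every Eomes-high cell. A list of 12 extraembryonic ectoderm markers summed to 13 to 27.1 transcripts per 10000 in 7 of the 83 cells, against at most 0.720 in the other 76 and at most 0.978 in the Eomes-negative cells. Of these 7 cells, 1 came from 1_10, 1 from 1_11 and 5 from 2_12. They held 10 of the 12 markers, with Rhox6 and Esx1 at 0. The trophoblast transcription factor genes Elf5, Cdx2, Esrrb and Tfap2c were each seen in 6 of the 7. In the 38 Eomes-negative cells, 8 of the 12 markers, Elf5, Cdx2 and Tfap2c among them, were at 0. Pou5f1 in the 7 cells had a median of 0.581 and a highest value of 1.67 per 10000, and Nodal was seen in 1 of them. The 7 cells are called cells with extraembryonic ectoderm markers below. The calls between the gates are given with them, as the rule chose the cells, and without them. Some other values are given in only 1 of these ways, and values against T-positive cells include the 7 cells unless stated. Leaving them out was fixed as an alternative, and it left 63 Eomes-high cells in the 4 libraries.

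**Figure D2:**
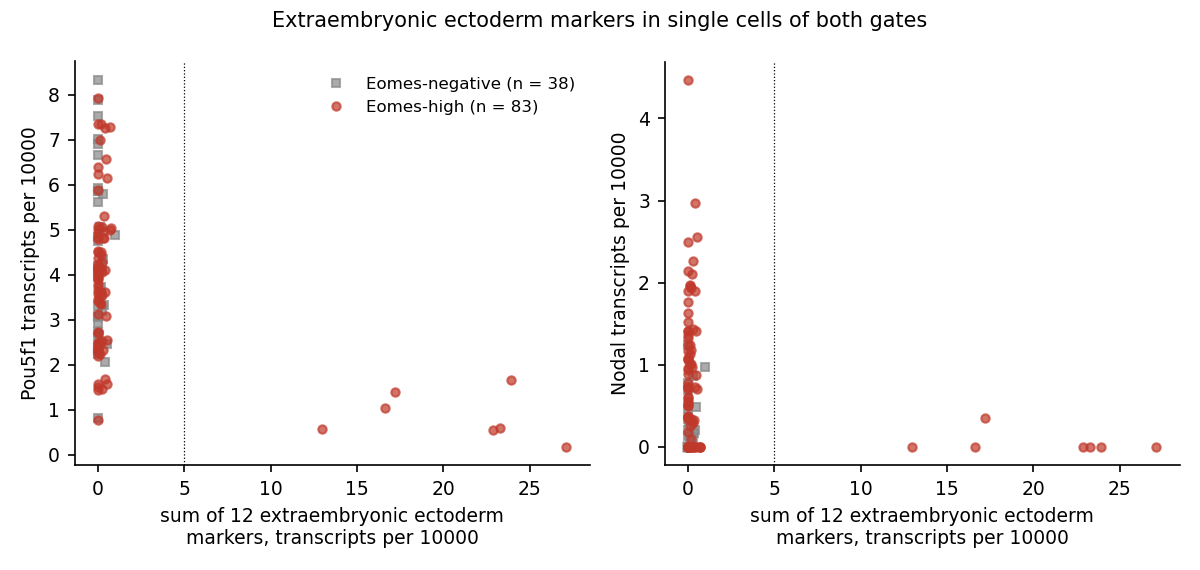
Pou5f1 (left) and Nodal (right) in transcripts per 10000 (vertical axes) against the sum of 12 extraembryonic ectoderm markers in transcripts per 10000 (horizontal axes), where each point is 1 cell, red circles are the 83 Eomes-high cells and grey squares the 38 Eomes-negative cells. The 7 cells right of the dotted line at 5 have 13 to 27.1 marker transcripts per 10000 and at most 1.67 of Pou5f1.

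Other cell types and signs of RNA quality differed less between the gates. Visceral endoderm markers, of which 11 of 16 were seen in the Eomes-negative and 13 in the Eomes-high cells, summed to medians of 1.0 (range 0 to 8.49) and 1.33 (range 0 to 7.44) transcripts per 10000. Apoa2 and Apoa4 were at 0 in both gates. Primordial germ cell markers had medians of 0.220 and 0.225 per 10000, with Prdm14 at 0 in both. Median depth was 34375 transcripts per Eomes-negative and 39348 per Eomes-high cell, and the log2 ratio of the gates' medians within a library was on average 0.29 ± 0.811 (SD, n = 4; exact two-sided sign-flip permutation p = 0.63, where 4 libraries allow no p under 0.125). Mitochondrial transcripts made up a median of 16.3% and 15.7% (mean difference within a library -0.588 ± 2.36 points, SD, n = 4; exact permutation p = 0.75). Without 2_9 the mean log2 depth ratio was -0.07. Library 2_9 stood apart in its 4 Eomes-negative cells, which had a median of 10828 transcripts against 28351 in its Eomes-high cells. Summed over cells, the gates of the 4 libraries held 54572 (Eomes-negative, 2_9) to 872416 (Eomes-high, 1_10) transcripts. Libraries overlapped in barcode columns, all 96 being shared in 2 of 15 pairs and 48 in 8.

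The comparison between the gates asks which genes accompany Eomes in cells where T was not seen. As for Eomes, a zero for T, Mesp1 or Foxa2 may be a missed transcript. Cells that had not switched on T therefore cannot be told from cells whose T was missed. Between Eomes-high and Eomes-negative cells, few genes differed beyond the spread of this difference from library to library. The strongest of those that did not depend on the cells with extraembryonic ectoderm markers were Nodal and Fst, both higher in Eomes-high cells. By edgeR's quasi-likelihood test with the library as a block, 6 of 6185 genes tested were higher at an adjusted p under 0.05 (0.097% of genes tested) and 0 were lower. At an unadjusted p under 0.05, 153 were higher (2.47%) and 118 lower (1.91%), and DESeq2 called 2 higher (0.0323%), Nodal and Fst, and 0 lower. Without the 7 cells, 6126 genes were tested, of which 5 were higher (0.0816%), namely Nodal, Fst, Nefl, Tdgf1 and Nanog, and 1 was lower (0.0163%), Sox3. At an unadjusted p under 0.05, 128 were then higher (2.09%) and 109 lower (1.78%). The 2 sets of calls shared Nodal and Fst. Calls were sensitive to the fit and to single libraries. Without the block 0 genes passed (2 without the 7 cells), and leaving out 1_10, 1_11, 2_9 or 2_12 gave 1, 3, 18 and 13 calls (2, 2, 4 and 14 without the 7 cells). Within the libraries labelled with prefix 1 there were 85 calls, and within prefix 2 there were 4 (86 and 0 without the 7 cells); whether the prefixes differ was not tested. Levels below are counts per 1000000 (CPM) of the nuclear transcripts summed over a gate's cells in a library, and fold changes are on the log2 scale.

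Nodal encodes the ligand itself. Its level in Eomes-negative cells was 8.7 CPM in 1_10, 24.1 in 1_11, 18.3 in 2_9 and 25.7 in 2_12, from 3, 15, 1 and 11 transcripts. In Eomes-high cells it was 136.4, 113.2, 53.8 and 74.9 CPM in the same libraries, and 109.1 in 2_12 without the cells with extraembryonic ectoderm markers. Every Eomes-high sum was thus above every Eomes-negative sum. In 2_9, however, the floor of 3 counts in the Eomes-negative sum lay above the Eomes-high level of 53.8 CPM, so that library alone could show no difference. The log2 fold change was 2.36 (SE 0.313, edgeR adjusted p = 0.000878, higher in 4 of 4 libraries) and 2.53 (SE 0.292, edgeR adjusted p = 0.000123) without the 7 cells. It missed the threshold without library 1_10 (1.92, edgeR adjusted p = 0.133) and without the block (2.23, edgeR adjusted p = 0.0667), but passed in both settings once the 7 cells were left out (2.15, adjusted p = 0.0232, and 2.35, adjusted p = 0.0241). Within prefix 1 the log2 fold change was 2.73 (edgeR adjusted p = 8.95e-08), and within prefix 2 it was 1.54 (edgeR adjusted p = 0.999). Once the 7 cells were left out, these fold changes were 2.77 and 2.00.

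Counted cell by cell, Nodal was seen in 60 of 83 Eomes-high, 65 of 103 intermediate and 15 of 38 Eomes-negative cells. After each cell was thinned to 10000 transcripts, it was seen in 48.2% of Eomes-high, 23.3% of intermediate and 10.5% of Eomes-negative cells. The intermediate cells, which entered no test here, lay between the gates in 3 of the 4 libraries, at 37.0 CPM in 1_10, 53.8 in 1_11, 26.4 in 2_9 and 25.1 in 2_12. Nodal lies on chromosome 10 at 61417972 to 61425338 (plus strand, GRCm38, GENCODE M21), where no other annotated gene overlaps it.

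Fst encodes follistatin, a secreted protein that binds activins, and was placed among the primitive streak genes. It had the highest fold change of the genes called without the 7 cells. Being low in Eomes-negative cells, Fst could pass the filter on low counts through the Eomes-high sums alone, so this rank is only a description. The Eomes-negative sums held 3, 6, 0 and 6 Fst transcripts in 1_10, 1_11, 2_9 and 2_12, or 8.7, 9.6, 0 and 14 CPM, and the Eomes-high sums reached 96.3, 75.8, 32.5 and 45.9 CPM. The groups did not overlap, although in 2_9 the floor of 3 counts in the Eomes-negative sum was 55.0 CPM, above the Eomes-high level there, so that library alone could show no difference. The log2 fold change was 2.75 (SE 0.366, edgeR adjusted p = 0.000878) and 2.92 (SE 0.346, edgeR adjusted p = 0.000125) without the 7 cells. It missed the threshold without 1_10 (2.48, edgeR adjusted p = 0.174), without 1_11 (2.60, edgeR adjusted p = 0.0615) and without the block (2.62, edgeR adjusted p = 0.0667), and passed in all of these once the 7 cells were left out (2.72, 2.86 and 2.73, with adjusted p = 0.0353, 0.0365 and 0.0241). Within prefix 1 it was 3.14 (edgeR adjusted p = 2.49e-07) and within prefix 2 it was 1.89 (edgeR adjusted p = 0.999). Once the 7 cells were left out, these fold changes were 3.19 and 2.36.

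In the intermediate cells Fst had 9.0, 7.7, 9.6 and 4.6 CPM in the 4 libraries, below every Eomes-high sum, a description without a test. It was seen in 45 of 83 Eomes-high, 29 of 103 intermediate and 8 of 38 Eomes-negative cells. Fst lies on chromosome 13 at 114452290 to 114458951 (minus strand) and overlaps the antisense gene Gm47040. Whether the counting used strand is not given in the sources used here, so reads of the pair cannot be told apart.

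**Figure D3:**
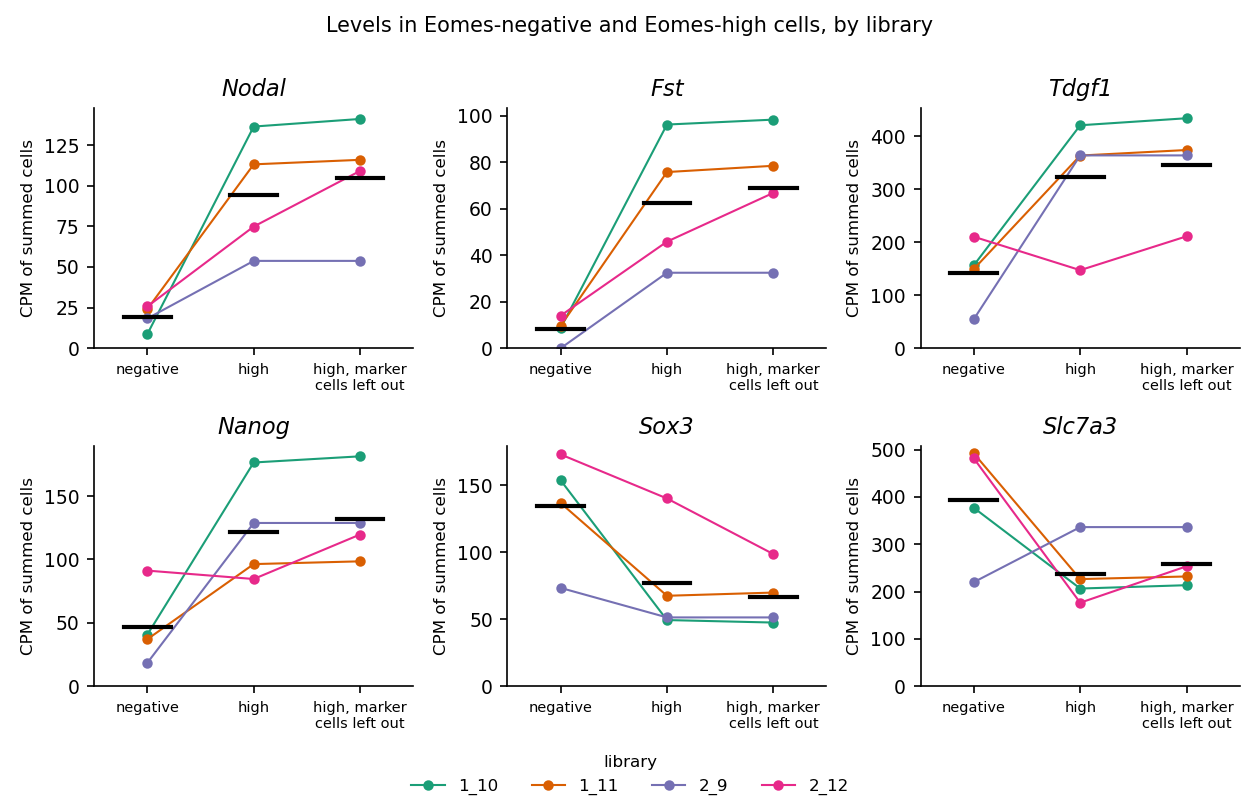
Level in CPM of summed cells (vertical axes, from 0) of 6 genes in Eomes-negative cells, in Eomes-high cells, and in Eomes-high cells without the 7 cells with extraembryonic ectoderm markers (horizontal axes), where each coloured line is 1 library and each black bar the mean of 4 libraries. Nodal and Fst are higher in Eomes-high cells in all 4 libraries, while Tdgf1, Nanog and Sox3 shift in 2_12 when the marker cells are left out and Slc7a3 is higher in Eomes-high cells in 2_9 only.

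Tdgf1, the co-receptor gene, and Nanog, a pluripotency transcription factor gene that the posterior epiblast keeps longest, passed the test once the 7 cells were left out. Their promoters are shown as picked cases, since among the genes looked up these alone held a FOXH1 match. The 250 bases before each start (for Nanog, the first of 2 listed starts) were read from RefSeq (GRCm38.p6), and capitals mark 2 motifs of NODAL effectors on either strand, the FOXH1 motif TGTNNATT and the SMAD box CAGAC.
Tdgf1, chr9:110946159-110946408, minus strand: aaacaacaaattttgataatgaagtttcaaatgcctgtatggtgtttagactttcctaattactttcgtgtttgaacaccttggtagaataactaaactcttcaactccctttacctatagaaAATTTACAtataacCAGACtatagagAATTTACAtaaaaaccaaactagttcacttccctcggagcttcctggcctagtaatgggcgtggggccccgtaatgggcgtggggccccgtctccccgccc
Nanog, chr6:122707239-122707488, plus strand: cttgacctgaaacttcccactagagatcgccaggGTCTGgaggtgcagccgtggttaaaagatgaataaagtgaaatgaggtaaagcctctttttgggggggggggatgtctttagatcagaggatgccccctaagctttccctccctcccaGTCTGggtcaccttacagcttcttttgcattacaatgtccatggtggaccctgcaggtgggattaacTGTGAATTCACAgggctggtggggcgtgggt
In Tdgf1, 2 FOXH1 matches began 127 and 101 bases before the start, with a SMAD box at 113 between them. In Nanog, 2 FOXH1 matches on opposite strands overlapped at 31 and 27 bases before the start, and SMAD boxes lay at 216 and 98. Of all 32851 RefSeq promoters of the same length, 10.9% held the FOXH1 motif and 42.2% the SMAD box. The same window of Nodal and of Eomes held neither motif, and none of these 4 promoters held the T-box motif GGTGTGA, found in 3.33% of all promoters. A match describes the letters and is not a binding site. Of the 15 genes looked up, 10 had a promoter entry. Besides Nodal and Eomes, the entries of Rnf128, Id2, Igf2, Slc27a2, Dnmt3a and Sms held no FOXH1 match. The 2 promoters shown therefore do not stand for the named genes.

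Tdgf1 had 156.6, 149.6, 55.0 and 210.4 CPM in the Eomes-negative sums of 1_10, 1_11, 2_9 and 2_12, and 433.9, 374.0, 363.8 and 211.2 CPM in the Eomes-high sums without the 7 cells. It was about level in 2_12 and higher in the other libraries. The log2 fold change was 1.10 (SE 0.206, edgeR adjusted p = 0.0366), and with the 7 cells it was 0.94 (edgeR adjusted p = 0.354). Nanog had 40.6, 37.0, 18.3 and 91.2 CPM against 181.4, 98.5, 128.8 and 119.7 CPM, so each library was higher in Eomes-high cells. Its log2 fold change was 1.35 (SE 0.257, edgeR adjusted p = 0.0366), against 1.18 (edgeR adjusted p = 0.256) with the 7 cells. Neither passed without the block (edgeR adjusted p = 0.386 and 0.506) or with DESeq2 (adjusted p = 0.167 and 0.134). Without 1_10, 1_11 or 2_9 the adjusted p was 1, 1 and 0.0567 for Tdgf1 and 1, 0.925 and 0.0674 for Nanog. Within prefix 1 the log2 fold changes were 1.39 and 1.76, and within prefix 2 they were 0.67 and 0.77.

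Nefl, which encodes the neurofilament light chain, was also higher without the 7 cells, at 130.4, 114.7, 242.5 and 144.3 CPM in Eomes-high against 81.2, 40.2, 91.6 and 63.1 CPM in Eomes-negative cells. The groups did not overlap. Its log2 fold change was 1.14 (SE 0.205, edgeR adjusted p = 0.0309), and 0.99 (edgeR adjusted p = 0.103) with the 7 cells. Nefl overlaps Nefm on the other strand, and as for Fst, reads of the pair cannot be told apart. The call was lost without the block (edgeR adjusted p = 0.425) and without 1_10, 1_11 or 2_9 (edgeR adjusted p = 0.0977, 0.925 and 0.0567). DESeq2 did not call Nefl either (adjusted p = 0.125).

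Sox3, a SOX family transcription factor gene of the epiblast and neural ectoderm, was the 1 gene lower in Eomes-high cells. Its level was 153.7, 136.7, 73.3 and 173.0 CPM in the Eomes-negative sums of 1_10, 1_11, 2_9 and 2_12, and 47.4, 69.8, 51.3 and 98.5 CPM in the Eomes-high sums without the 7 cells. It was at 230.9 CPM in the 5 marker cells of 2_12. Without them it was lower in 4 of 4 libraries, though the 2 groups overlapped through 2_9 and 2_12. The log2 fold change was -1.10 (SE 0.206, edgeR adjusted p = 0.0366) without the 7 cells and -0.92 (edgeR adjusted p = 0.214) with them. DESeq2 did not call Sox3 without the 7 cells (adjusted p = 0.159). Without 1_10 or 1_11 the adjusted p was 1 and 0.711, and without the block it was 0.283, all by edgeR without the 7 cells. Within prefix 1 the log2 fold change was -1.28 (edgeR adjusted p = 6.04e-06) and within prefix 2 it was -0.77 (edgeR adjusted p = 1).

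The other genes with the lowest p among those lower in Eomes-high cells did not pass in the gates as the rule chose them. Slc7a3, a cationic amino acid transporter gene, had a log2 fold change of -0.91 (edgeR adjusted p = 0.0803), at 377.0, 492.1, 219.9 and 481.5 CPM in Eomes-negative and 206.3, 226.3, 336.3 and 176.3 CPM in Eomes-high cells. It was higher in Eomes-high cells in 2_9 alone, and without that library it passed (-1.12, edgeR adjusted p = 0.000162). Without the 7 cells Slc7a3 was at -0.77 (edgeR adjusted p = 0.100), and without 2_9 as well at -0.94 (edgeR adjusted p = 0.000401). Slc27a2, a fatty acid transport and activation gene, had -2.20, Dnmt3a, a DNA methyltransferase gene, -0.48, and Sms, the spermine synthase gene, -0.57. Sox3, Slc7a3 and Sms are X-linked, as is Rnf128 below. No cell of either gate in 1_10 or 1_11 held Xist, the RNA that coats the inactive X chromosome. In 2_9 it was at 0 in the Eomes-negative and 8.75 CPM in the Eomes-high cells, and in 2_12 at 107.5 and 50.7 CPM. Y-linked genes summed to 261.0, 204.2, 311.5 and 44.4 CPM in the Eomes-negative and 213.2, 215.5, 126.3 and 31.4 CPM in the Eomes-high sums of 1_10, 1_11, 2_9 and 2_12. The part of the mix of sexes in these differences was not tested. Over the 201 X-linked genes tested, the median log2 fold change was -0.01, beside 0.01 over 5810 autosomal genes.

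The remaining 4 genes were not called over the 4 libraries once the cells with extraembryonic ectoderm markers were left out. Igf2, a growth factor gene, and H19, a noncoding RNA gene, are imprinted neighbours on chromosome 7, and Igf2 overlaps Gm49394 and the antisense gene Igf2os. Id2 encodes an inhibitor of basic helix-loop-helix factors, and Rnf128 an E3 ubiquitin ligase. H19 was at 205.9, 40.2, 91.6 and 72.5 CPM in the Eomes-negative sums of the 4 libraries and at 420.7, 211.9, 93.8 and 3562.3 CPM in the Eomes-high sums. In the 7 cells H19 had a median of 86.8 transcripts per 10000 and Igf2 one of 17.4, against 0.519 and 0 in the other Eomes-high cells. Log2 fold changes were 4.20 for Igf2, 2.91 for H19, 2.07 for Rnf128 and 1.87 for Id2 (edgeR adjusted p = 4.86e-05, 0.0369, 0.0369 and 0.00578). Without the 7 cells H19 changed sign to -0.39 (edgeR adjusted p = 1), Id2 was at 0.45 (edgeR adjusted p = 1), and Igf2 and Rnf128 had too few transcripts left to be tested. Within prefix 1 and without these cells, Id2 was called higher (1.76, edgeR adjusted p = 0.00234) and H19 lower (-0.96, edgeR adjusted p = 0.0139). Leaving out cells with visceral endoderm markers instead (68 and 35 cells left, with 1 of the 7 cells among those removed) gave 4 calls, without Igf2 and Rnf128. Igf2 and Id2 lay outside the rule for named genes, since 2_9 went the other way, and were named after their values were seen.

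Gene lists are described by their counts and medians beside those of all genes tested, in the cells without extraembryonic ectoderm markers unless stated. Over all 6126 genes tested, the median log2 fold change was 0.00, with 3105 positive and 3021 negative, against which the counts of signs below are to be read. Likewise, 5 of all these genes passed as higher (0.0816%) and 1 as lower (0.0163%). Of the 22 NODAL pathway genes, 12 could be tested, 8 of them with a positive log2 fold change, and the median was 0.13. The ligand gene Nodal and the co-receptor gene Tdgf1 passed, and 0 members passed as lower. Pmepa1, a SMAD target that limits the pathway, was at 1.12 (SE 0.265, edgeR adjusted p = 0.226). The receptor genes Acvr1b and Acvr2b were at 0.08 and 0.03, Smad2 and Smad4 at -0.03 and -0.32, and the antagonist gene Lefty2 at -0.18, none of which passed. With the 7 cells, 13 members were tested, 1 passed and the median was 0.12.

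Of the 28 primitive streak and mesendoderm genes, which were chosen with T, Mesp1 and Foxa2 left out, 3 could be tested. Fst passed, Fgf8, an FGF ligand gene of the streak, was at 1.12 (edgeR adjusted p = 1), and Lefty2 did not pass. The list median was thus the value of Fgf8. A gene low in Eomes-negative cells could pass the filter through the Eomes-high sums alone, so this median is no result about the list. The other 25 were too low for the filter, which is a description of the depth as well as of the cells, since 23 members had any transcript in Eomes-high cells against 28 in the T-positive cells. Mixl1, a homeobox gene of the streak, was seen in 2 of 83 Eomes-high, 1 of 38 Eomes-negative and 80 of 139 T-positive cells. Asking that Mixl1 be at 0 as well removed no cell of the 4 libraries and so tested nothing. Wnt3, a WNT ligand gene needed for the streak, was at 0, 1.6, 0 and 4.7 CPM in the Eomes-negative and 18.3, 12, 10.0 and 7.2 CPM in the Eomes-high sums of 1_10, 1_11, 2_9 and 2_12. These values did not overlap, but Wnt3 was not tested and was seen in only 2 of 38 Eomes-negative cells. In 2_9 the floor of 3 counts in the Eomes-negative sum lay above every Eomes-high value, so the separation is not beyond counting error there.

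Among the 23 pluripotency and epiblast genes tested, 2 passed as higher, Nanog and Tdgf1, and 0 as lower, with a median of -0.02. Utf1, an epiblast chromatin gene, was at -0.52 (edgeR adjusted p = 0.292), the DNA methyltransferase genes Dnmt3a and Dnmt3b at -0.34 and -0.02, and Pou3f1, a POU factor gene of the epiblast, at -0.49. In the anterior and neural ectoderm list 7 of 8 tested members had a negative log2 fold change, with a median of -0.44, and Sox3 alone passed. The lists overlap. Sox2, Otx2, Pou3f1, Utf1 and Slc7a3 are members of both lists of this paragraph, and Tdgf1 is also in the NODAL list. The medians and counts of these lists are therefore not independent. With the 7 cells 0 members of either list passed, with medians of -0.10 and -0.35. Otx2, the head and epiblast homeobox gene, was at -0.05.

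The pathway lists other than NODAL held 0 members that passed, apart from Id2 in the BMP list when the 7 cells were included. Medians were -0.07 over 11 WNT, -0.04 over 15 FGF and -0.08 over 7 BMP pathway genes. The WNT effector gene Tcf7 was at 0.57 and the WNT inhibitor gene Sfrp2 at -0.67, and neither passed. Over 20 S and G2/M phase genes the median was -0.05, over 9 epithelial genes -0.04 and over 5 mesenchymal and EMT genes 0.15, with 0 called in each. Immediate early and stress genes had a median of 0.28 over 11 members, 8 of them positive. Of the 11 members, 0 passed and 4 were higher at an unadjusted p under 0.05, beside 128 of all 6126 genes tested (2.09%). Egr1 was at 0.64 (edgeR adjusted p = 0.647), Junb at 0.86 and Dusp1 at 0.61, and the part of these genes in the results above was not tested.

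**Figure D4:**
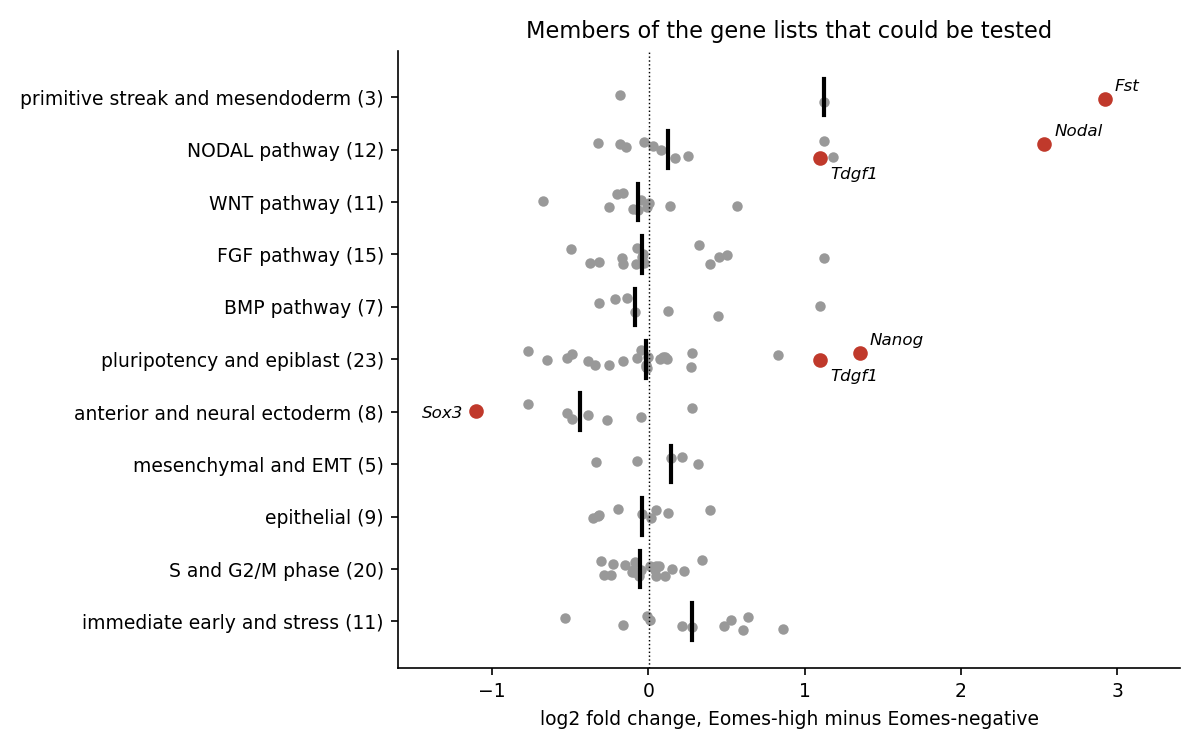
Log2 fold change, Eomes-high minus Eomes-negative, without the 7 cells with extraembryonic ectoderm markers (horizontal axis), for the members of 11 gene lists that could be tested (vertical axis, number of members in brackets), where red points passed at an adjusted p under 0.05, grey points did not, black bars are list medians and the dotted line is the median of all genes tested. Fst, Nodal, Nanog and Tdgf1 stand to the right and Sox3 to the left. The anterior list has a median of -0.44. The median of the streak list (1.12) is the value of Fgf8, 1 of 3 members tested, and is no result about that list.

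Eomes-high cells were next compared with T-positive cells of the same libraries, the nearest cells that had switched on T. This comparison shares the Eomes-high cells with the one above, so the 2 are not independent. It rested on all 6 libraries. By edgeR with the library as a block, 25 of 7112 genes differed (0.352%), of which 6 were higher (0.0844%) and 19 lower (0.267%) in Eomes-high cells. Without the 7 cells, and without 1 T-positive cell with the same markers, 46 of 7080 differed (0.65%), 18 higher (0.254%) and 28 lower (0.395%), among them all 25. Without library 2_14 the count was 13, without the block 6, and within prefix 2 it was 28 (prefix 1 alone was not fitted). Median depth was 61109 transcripts in T-positive and 39348 in Eomes-high cells, and visceral endoderm markers reached 5 per 10000 in 16 of 139 T-positive and 3 of 83 Eomes-high cells. These markers summed to 212.2 and 149.9 CPM (266.6 and 229.2 CPM in the T-positive cells of 2_13 and 2_14), and germ cell markers to 54.4 and 34.8 CPM. The part of depth and of these cells in the differences was not tested.

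Genes of the streak were lower in Eomes-high cells than in T-positive cells. The gates select for such a difference, since Eomes-high cells held no T, Mesp1 or Foxa2. T-positive cells held T and could hold the other genes. The part of this choice of cells in the differences was not tested. Evx1, a homeobox gene of the posterior streak, was at 17.2, 25.3, 3.8, 2.4, 3.8 and 0 CPM in the Eomes-high sums of 1_10, 1_11, 2_9, 2_12, 2_13 and 2_14, and at 39.7, 75.8, 22.9, 51.5, 66.4 and 68.4 CPM in the T-positive sums, lower in 6 of 6 libraries (log2 fold change -2.33, SE 0.320, edgeR adjusted p = 0.000430). Evx1 overlaps the antisense gene Evx1os, with the same limit as for Fst. Snai1, which represses epithelial genes at the streak, ran from 5.7 to 15.0 CPM in Eomes-high and from 12.2 to 114.3 CPM in T-positive cells (-2.17, edgeR adjusted p = 0.000430). Wnt3 differed by -1.67 (edgeR adjusted p = 0.00307), the WNT feedback gene Axin2 by -1.27 and the BMP-responsive homeobox gene Msx1 by -1.39 (edgeR adjusted p = 0.0188 and 0.0288). Apln, the apelin ligand gene, differed by -2.32 (edgeR adjusted p = 0.000267). It had 7.2 to 15.0 CPM in every Eomes-high sum, and in 1_11 the T-positive sum was no higher, at 8.4 CPM. Of the streak list, 6 members could be tested, all with a negative log2 fold change, and 4 passed, namely Evx1, Wnt3, Snai1 and Fst, with a median of -1.64 beside 0.00 over all genes. Of all 7112 genes tested, 3532 had a negative log2 fold change. A streak gene low in Eomes-high cells could pass the filter through the T-positive sums alone. The signs and the median of this list are therefore no result about its members.

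Fst was lower in Eomes-high than in T-positive cells. It had 96.3, 75.8, 32.5, 45.9, 43.7 and 78.8 CPM there and 151.3, 203.9, 112.9, 152.7, 309.1 and 274.4 CPM in T-positive cells of the 6 libraries, which did not overlap (log2 fold change -1.62, SE 0.174, edgeR adjusted p = 2.42e-05). Tdgf1 was lower by 0.63 on the log2 scale (edgeR adjusted p = 0.0115), a call lost without 2_14 (adjusted p = 0.102), without the block (adjusted p = 0.345) and with DESeq2 (adjusted p = 0.280). Nodal did not pass. Without the 7 cells its log2 fold change against T-positive cells was 0.01, with sums of 141.1, 115.9, 53.8, 109.1, 66.5 and 108.8 CPM in Eomes-high and 120.8, 144.9, 57.7, 78.9, 79.7 and 95.9 CPM in T-positive cells.

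The 6 genes higher in Eomes-high than in T-positive cells were Utf1 (log2 fold change 0.73), the metallothionein genes Mt1 (0.75) and Mt2 (1.04), Enc1 (0.78), the linker histone gene Hist1h1e (0.94) and Tfe3, a transcription factor gene (0.54), with edgeR adjusted p from 3.19e-05 to 0.0288. Utf1 was at 500.9, 362.3, 683.9, 934.7, 748.7 and 615.3 CPM in the Eomes-high and 504.4, 210.6, 496.5, 566.2, 301.2 and 298.7 CPM in the T-positive sums, level in 1_10 and higher in the other 5 libraries. The Eomes-high sum of 2_12 includes 5 of the 7 cells with extraembryonic ectoderm markers. In the 7 cells Utf1 had a median of 10.6 transcripts per 10000, against 5.15 in the other Eomes-high cells. Without the 7 cells, 5 of 23 pluripotency and epiblast genes passed as higher, namely Utf1, Otx2 (0.37), Dnmt3a (0.33), Dnmt3b (0.28) and L1td1 (0.32), and Tdgf1 as lower, with a median of 0.28. Over all 7080 genes tested, 18 passed as higher (0.254%) and 28 as lower (0.395%), with a median of 0.00. With the 7 cells, 1 of the 23 list members passed as higher and 1 as lower. Dusp4, a phosphatase gene of the FGF list, was at 0.91 (edgeR adjusted p = 0.0464), and the extracellular matrix gene Fn1 at -1.06 (edgeR adjusted p = 0.0373) without the 7 cells. Fn1 in T-positive cells was 48.4 to 70.8 CPM in 1_10, 1_11, 2_9 and 2_12 and 281.3 and 210.7 CPM in 2_13 and 2_14, the libraries with most T-positive cells.

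**Figure D5:**
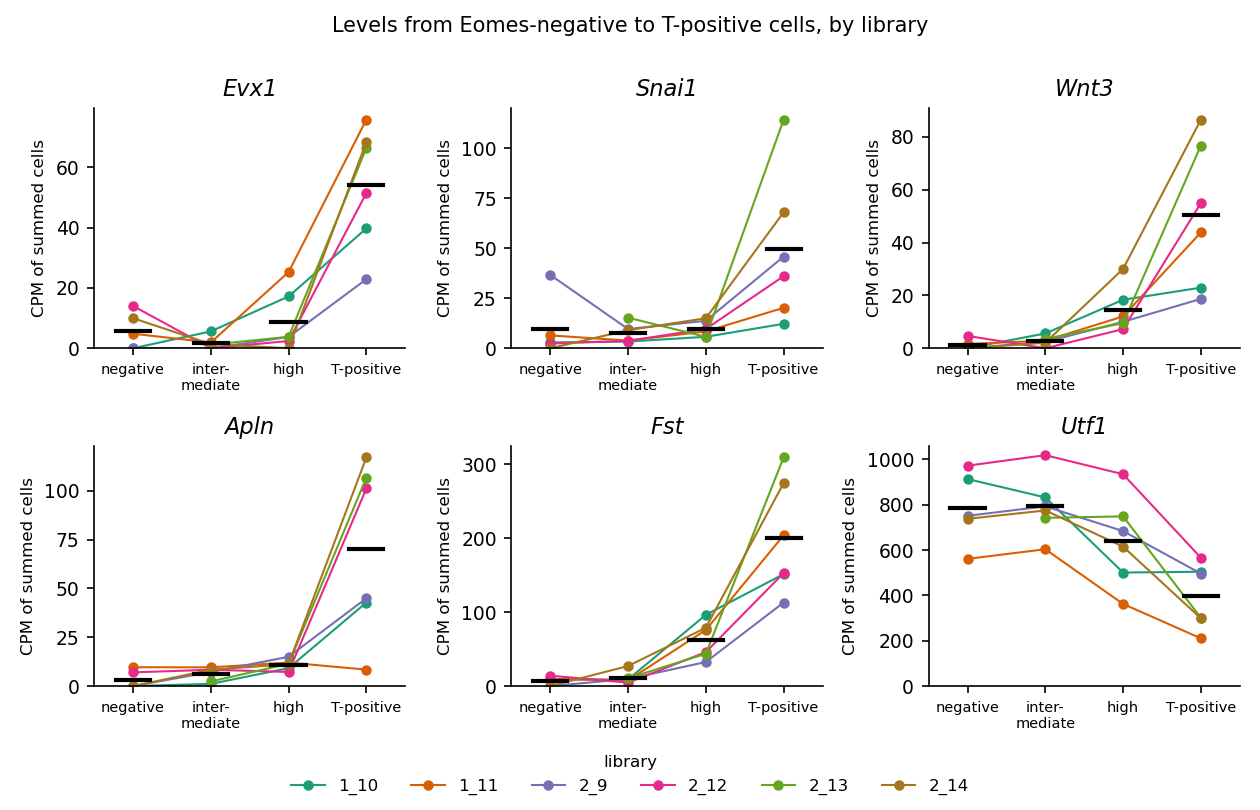
Level in CPM of summed cells (vertical axes, from 0) of 6 genes in Eomes-negative, Eomes-intermediate, Eomes-high and T-positive cells (horizontal axes), where each coloured line is 1 of 6 libraries (2_13 has no Eomes-negative cell) and each black bar the mean over the libraries with a value. Fst has a mean of 62.2 CPM in Eomes-high cells, while the means of Evx1 and Snai1 are 8.7 and 9.7 CPM there and 54.1 and 49.4 CPM in T-positive cells.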

How the data were processed

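Members and gene lists were chosen with earlier results of these data known. The deposited files hold expected counts, which the authors had corrected for UMIs used more than once: each value is the collision-corrected form of an integer UMI count (within 4.09e-12). BWA 0.6.2-r126 and bcl2fastq 2.17.1.14 are named in the submitters' processing notes, while build, annotation and use of strand are not given in the sources used here. The 96 used barcodes of a library were the column set with 98.9% to 99.97% of its transcripts. Libraries held 2933395 to 5493791 nuclear transcripts, and intervals or floors (3 counts) cover counting error only. Those of prefix 1 held 65 to 70 ERCC spike-in rows and those of prefix 2 held 6 or 7.

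Expected counts were rounded and summed per library and gate (at least 3 cells in each). Sums were tested with edgeR 4.0.16 (R 4.3.3; TMM, filterByExpr, quasi-likelihood F test, library as block) with Benjamini-Hochberg adjustment at 0.05 over all genes tested. ERCC and mitochondrial rows were left out, and the 8 genes of the gates received no test. Deviations of a library's 2 sums from the gate means correlated at 0.276, 0.145, 0.197 and 0.160, so libraries pair the gates. Pairs of libraries differed by more than sampling noise (chi-square per degree of freedom of at least 1.70). Alternatives used DESeq2 1.42.0, limma 3.58.1 and other filters. The method was tested on simulated data. Cells were picked by hand and doublets were not called. Named genes were those with an adjusted p under 0.05, a mean of at least 20 CPM and the same sign in every library (up to 12 each way; where none passed, the 5 with the lowest p), together with members of the lists; genes called without the 7 cells, and those of the comparison with T-positive cells, were named after their values were seen. The values of 1 list member are not reported here.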

Additional observations from a re-analysis of the deposited data

Results flagged for a closer look

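A library stood far from the others in 7 of 43 groups examined (42 of 4 sums and 1 of 6 shares), where chance alone gives about 1 in 20. H19 was at 3562.3 CPM in the Eomes-high sum of 2_12, Igf2 at 1229 CPM and Id2 at 406 CPM, and in each case the other 3 libraries lay far below. That library held 5 of the 7 cells with extraembryonic ectoderm markers, whose sum of 12 markers was 755.9 CPM in its Eomes-high cells against 16.3 to 68.8 CPM in the other 3. Igf2 remained highest in 2_12 without those cells, at 45.8 CPM against at most 13.7. Sms was at 310 CPM in the Eomes-high sum of 2_9, with and without the marker cells, and Slc27a2 at 73.3 CPM in the Eomes-negative sum of the same library, which rested on 54572 transcripts of 4 cells.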

How the results depend on the processing

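The library is a replicate block in the results above. Without it, 0 genes passed between Eomes-high and Eomes-negative cells, in place of 6, and 6 against T-positive cells, in place of 25. Counts also moved with DESeq2 (2 and 14), no filter on low counts (75 and 112), cells thinned to 10000 transcripts after gating (3 and 7; Nodal and Fst were then too low to be tested between the Eomes gates), thinning before gating (23), at least 10 counts in every sum (0 of 948 genes), at least 20000 transcripts per cell (19), Eomes-high from 2 per 10000 (16), at least 5 cells per gate (18), limma on means of cells (0) and prefix 1 alone (85). The cause was not tested. Leaving out 1 library gave 1 to 18 calls, and 13 to 34 against T-positive cells. Leaving out the marker cells from the latter, an alternative chosen after seeing the data, gave 46.

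Combined after seeing the data with part of the settings, the fit without the marker cells called 2 without the block, 2 with DESeq2, 18 without a filter, 1 thinned after and 22 thinned before gating, 0 with limma, 86 in prefix 1, 0 in prefix 2, and 2 to 14 with 1 library left out. H19 changed sign without the marker cells (-0.39), and back to 0.26 thinned before gating, 0.090 with limma and 0.51 in prefix 2; with 1 library left out it ran from -0.79 to 0.26 (without 1_10). Id2 without the marker cells turned to -0.86 in prefix 2 and ran from -0.18 (without 1_11) to 1.33 with 1 library left out; in prefix 1 it was called at 1.76, and H19 at -0.96.

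Called members of the lists moved too. Streak genes went to 0 without the block, in prefix 2, with limma and thinned before gating, to 2 without a filter and 3 in prefix 1. NODAL genes went to 0 without the block, in prefix 2 and with limma, to 2 without a filter, thinned before gating and without marker cells, and 4 in prefix 1. BMP genes went to 0 without the block, with DESeq2, limma, thinned after gating, in prefix 2, with Eomes-high from 0.5 and without marker cells, to 3 without a filter and 2 in prefix 1. Pluripotency genes went to 3 without a filter, 2 thinned after and 4 thinned before gating, 2 from 20000 transcripts, 2 from 5 cells, 2 without marker cells and 8 in prefix 1. Anterior genes went to 2 without a filter, 2 thinned before gating, 2 from 20000 transcripts, 1 from 5 cells, 1 without marker cells and 4 in prefix 1. With settings added after seeing the data, 1 cell per gate gave 1 pluripotency and 1 anterior gene, and 30000 transcripts gave 1 and 2. FGF genes went to 1 without a filter and 1 in prefix 1, immediate early genes to 1 from 5 cells and 1 in prefix 1, and, without a filter, epithelial genes to 1, extraembryonic ectoderm markers to 7 and germ cell markers to 1; extraembryonic markers were 1 from 20000 transcripts and 1 from 5 cells. With 1 library left out, the ranges were 0 to 1 (streak, BMP, anterior, immediate early), 0 to 2 (pluripotency), 0 to 3 (NODAL) and 1 (extraembryonic ectoderm markers, testable only without 2_9). Depth limits the Eomes-negative side, where 1 library held 54572 transcripts.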
